A study of Mus musculus with 4 samples.

Results

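The interleukins and their receptors were examined across 4 libraries of cells sorted by flow cytometry from mouse adipose tissue and measured on Illumina Mouse-6 V2 BeadChips. Members were all genes whose symbol in the platform annotation begins with Il and a digit, which gave 77 of the 19057 genes with 1 symbol. They comprise 38 ligands, 36 receptor chains, 2 binding proteins (Il18bp and Il22ra2) and 1 enzyme (Il4i1, an amino acid oxidase named for its induction by interleukin 4). Each member was read by its brightest probe among those tested, or among all its probes where none was tested, and 34 members lay on probes that passed a detection filter and were tested, of 9975 genes tested.

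The libraries labelled null GFP+ (numbers 1 and 3) hold GFP+ cells of PPARG null mice, the library labelled het GFP+ (number 2) holds GFP+ cells of a PPARG het genotype, and the library labelled null GFP− (number 3) holds the GFP− cells of PPARG null mice. All were from adipose tissue of mice aged 2 months, with the strain given as Black 6 in the labels and as a mixed C57BL/6-129/SV background in the methods of the study. GFP marks the AdipoTrak lineage, in which a tTA inserted in the Pparg locus drives an H2B-GFP reporter, so that every GFP+ cell of either genotype carries the tTA allele, and the AdipoTrak control mice of the study also carry TRE-Cre. For the arrays, the methods of the study name mice with a whole-body deletion by Sox2-Cre and its results name mice with a lineage deletion by TRE-Cre, a conflict that the labels leave unsettled. All 7 stromal progenitor genes on the array were above detection in every library, that of GFP− cells included, so they do not tell the GFP+ gate from the GFP− gate.

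The genotype labels must be read with caution. Pparg, the targeted gene, had 3217 and 2479 intensity units in both libraries labelled null GFP+, 188 where the label was het GFP+ and 209 where it was null GFP−. By label, null GFP+ minus het GFP+ was 4.84 for Pparg in log2 units (SE 0.31, adjusted p = 0.00928 from limma). A further tested Pparg probe read 495 and 363 in libraries labelled null GFP+, 129 in het GFP+ and 101 in null GFP−. Its log2 difference from het GFP+ was 3.12 (adjusted p = 0.0192). The remaining Pparg probe was under detection in all libraries. The targeted gene thus runs against its labels. Every direction below is by label only, whatever name a group has, and where the probes lie relative to the deleted part of Pparg is not known here. Leukocyte markers also set the libraries apart. Summed intensities of mast cell and neutrophil genes were far higher in those labelled het GFP+ and null GFP− (values follow the members). Groups of 1 library carry no spread of their own, so every test borrows the spread of the null GFP+ pair. The study describes replicate arrays of cells sorted from groups of mice, but its labels tie no library to particular animals, and p-values measure only the spread between these libraries, which may be technical. In sorted bulk RNA, fewer cells of a type and less RNA per cell cannot be told apart.

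Interleukins are secreted signals through which leukocytes and tissue cells instruct one another. They act through paired receptor chains: the IL-1 family through receptors that recruit MyD88 and IRAK kinases towards NF-kappaB, and most of the others through receptors that carry JAK kinases and activate STAT factors. In adipose tissue, IL-33 from stromal cells sustains innate lymphoid cells and regulatory T cells, IL-4 and IL-13 drive alternative activation of macrophages, and IL-1 beta and IL-6 are produced during inflammation.

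In the comparison of null GFP+ with het GFP+ cells, 6 members were lower and 0 were higher at an adjusted p under 0.05 (limma, adjusted over all 17379 probes tested). The 6 were the ligands Il1b, Il4 and Il33 and the receptor chains Il18r1, Il10ra and Il13ra1. They were 17.6% of the 34 members tested, where 2.61% of all genes tested were lower and 1.31% were higher. Because the members passed the filter if they were bright in any library, those under detection in libraries labelled null GFP+ and above it in het GFP+ could only lie lower. Of the 6, this holds for Il1b, Il4 and Il10ra. It also holds for Il20ra, which did not pass (147 and 147 against 179, adjusted p = 0.343 from limma). Among the 22 members above the detection signal in all 4 libraries, 3 were lower (13.6%), against 1.29% of all genes above it in all 4. Of all 34, 12 had an unadjusted p under 0.05, of which Il27ra was the only one higher. The share of all genes at that threshold was not counted, so these 12 are a description only. Without the filter on dim probes, Il33 (adjusted p = 0.0586), Il10ra (0.0712), Il18r1 (0.0856) and Il13ra1 (0.113) no longer passed, while Il1b and Il4 did. Il13ra1 was also lost at an offset of 1 (0.0695).

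The DNA just upstream of the 3 ligands that were lower is shown so that their promoters can be set side by side. The windows hold the 250 bases before the most upstream start site in RefSeq, on build GRCm38.p6, written 5′ to 3′ on the strand of the gene, with matches to searched motifs in capitals. They lie at chr2:129371140-129371389 on the minus strand for Il1b, chr19:29924863-29925112 on the plus strand for Il33 and chr11:53618666-53618915 on the minus strand for Il4.
Il1b: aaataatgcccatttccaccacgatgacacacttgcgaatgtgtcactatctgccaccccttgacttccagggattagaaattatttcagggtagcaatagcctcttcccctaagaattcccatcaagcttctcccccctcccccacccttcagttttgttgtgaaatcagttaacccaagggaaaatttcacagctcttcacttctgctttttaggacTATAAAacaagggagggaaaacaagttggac
Il33: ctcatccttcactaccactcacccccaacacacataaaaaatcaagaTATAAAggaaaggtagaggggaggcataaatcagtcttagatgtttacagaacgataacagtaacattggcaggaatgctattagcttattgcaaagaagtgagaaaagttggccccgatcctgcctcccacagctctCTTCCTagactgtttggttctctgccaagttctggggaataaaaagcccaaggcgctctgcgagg
Il4: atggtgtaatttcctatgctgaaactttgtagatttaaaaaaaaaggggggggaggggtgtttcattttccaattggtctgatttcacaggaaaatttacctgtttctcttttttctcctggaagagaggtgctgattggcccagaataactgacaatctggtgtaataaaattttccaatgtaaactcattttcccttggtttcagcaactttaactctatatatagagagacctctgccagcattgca
The Il1b window holds TATAAA at position −31, and the Il33 window holds TATAAA at position −203 and an ETS match (AGGAAG, here on the opposite strand) at position −65, with positions counted back from the start site and given for the first base of the match. The Il4 window holds no match to these letters. The motifs searched on both strands were the letters TGANTCA for the inflammatory factor AP-1, TTCNNNGAA for STAT factors that act below cytokine receptors, AGATAA for the GATA factors of blood cells, AGGAAG for the ETS family, and by name NF-kappaB and the direct repeat DR1, at which PPARG binds with RXR. TATAAA was searched on the strand of the gene alone. Of the 60 members with a window, 12 held the AP-1 letters, 6 STAT, 10 GATA, 20 ETS, 3 NF-kappaB, 0 DR1 and 10 TATAAA. Over 27025 windows of all genes the shares were 6.85% for AP-1, 7.14% for STAT, 10.2% for GATA, 29.2% for ETS, 3.74% for NF-kappaB, 0.037% for DR1 and 8.13% for TATAAA. A match to letters is a description of the window only.

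**Figure D1:**
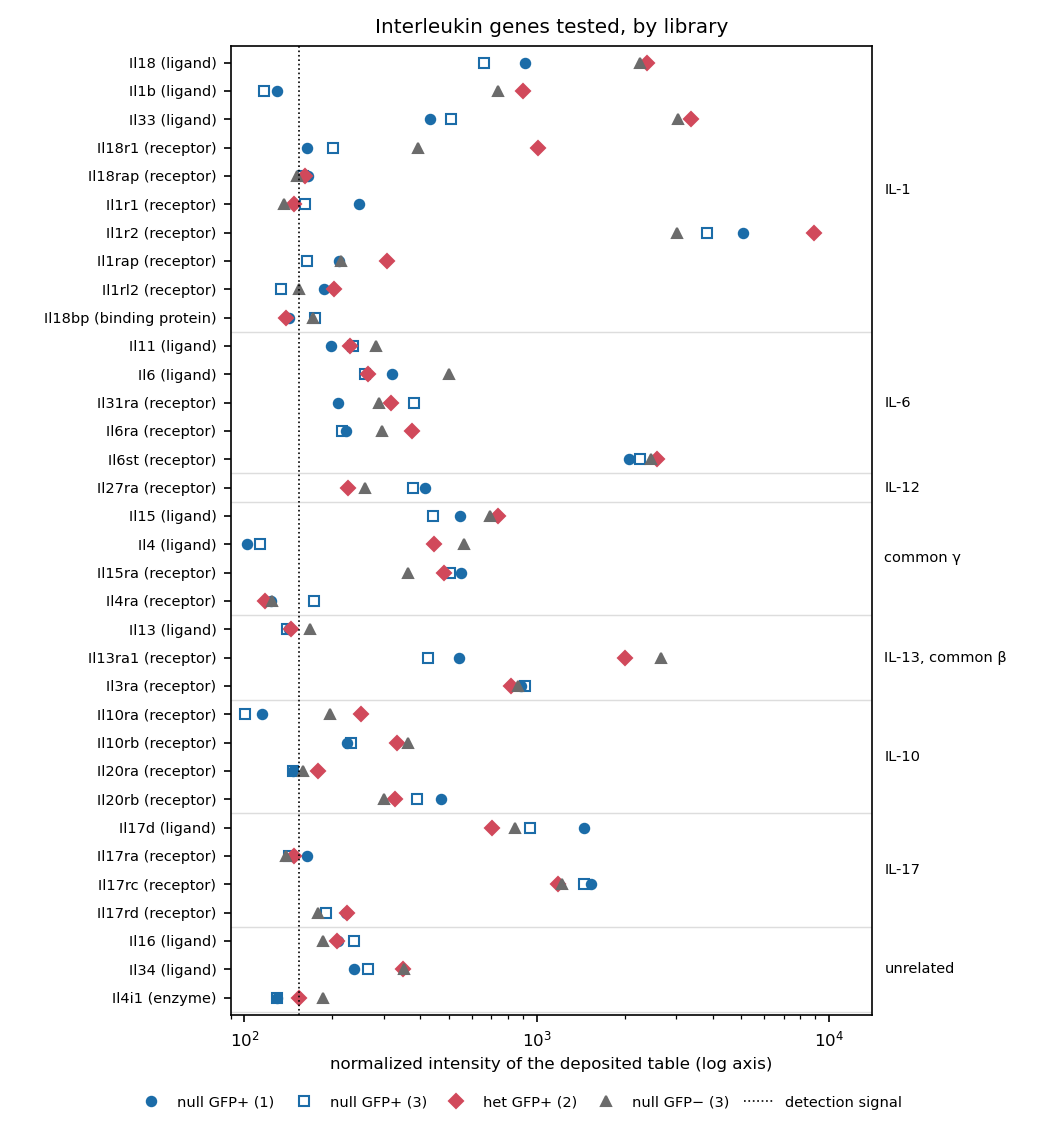
Normalized intensity (horizontal log axis) of the 34 members tested, in rows grouped by cytokine family, with 1 symbol per library and a dotted line at the detection signal of 154. Il1b, Il4, Il33, Il18, Il18r1, Il13ra1 and Il10ra show both libraries labelled null GFP+ left of the het GFP+ and null GFP− libraries, and Il27ra shows both right of them. Both also lie left for Il10rb, Il13, Il15, Il1rap, Il20ra, Il34, Il4i1, Il6ra and Il6st. They lie right for Il15ra, Il16, Il17d, Il17rc, Il1r1, Il20rb and Il3ra. Each member is shown by its chosen probe. Further tested probes of Il15, Il15ra, Il17rc, Il1rap, Il20rb and Il6ra did not all share these positions.

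Of the IL-1 family ligands, 3 were tested. Il1b, the secreted pyrogen of activated myeloid cells, read 130 and 117 in libraries labelled null GFP+, 896 in the one labelled het GFP+ and 740 in the one labelled null GFP−. Both libraries labelled null GFP+ were under the detection signal of 154, the highest signal at a detection p of 0.01 on any array, so a lower bound against that signal is given: Il1b was at least 5.81-fold lower in deposited intensity in libraries labelled null GFP+ than in that labelled het GFP+ (log2 difference −4.54, SE 0.30, adjusted p = 0.00928 from limma). Il33, an alarmin of stromal and epithelial nuclei, read 431 and 508 in libraries labelled null GFP+, 3366 in the one labelled het GFP+ and 3041 in the one labelled null GFP−. It was above detection in every library and lower in libraries labelled null GFP+ than in that labelled het GFP+ (log2 difference −3.12, SE 0.29, adjusted p = 0.0127).

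Il18, which is matured by inflammasomes like Il1b, read 913 and 663 in libraries labelled null GFP+, 2392 in the one labelled het GFP+ and 2260 in the one labelled null GFP−. The libraries labelled null GFP+ lay below both others, but the difference from het GFP+ of −1.75 did not pass the test (SE 0.34, adjusted p = 0.0738), though it passed with no background correction (adjusted p = 0.0140). A further probe of Il18 read 265 and 177 in libraries labelled null GFP+, against 570 in the one labelled het GFP+, with a log2 difference of −1.99 (adjusted p = 0.131). The remaining 7 IL-1 family ligands (Il1a, the receptor antagonist Il1rn, Il1f5, Il1f6, Il1f8, Il1f9 and Il1f10) and the receptor relatives Il1rapl1 and Il1rapl2 did not reach the detection signal in any library.

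Among the 6 IL-1 family receptors tested, Il18r1 was the 1 that passed. Il18r1, the ligand-binding chain for IL-18, read 164 and 201 in libraries labelled null GFP+, 1010 in the one labelled het GFP+ and 392 in the one labelled null GFP−. It was lower in libraries labelled null GFP+ than in that labelled het GFP+ (log2 difference −3.38, SE 0.36, adjusted p = 0.0165), and a further tested probe, at 124 and 126 against 262, was lower too (−2.25, adjusted p = 0.0237). Its remaining probe was under detection in all libraries. Its signalling partner chain Il18rap read 165 and 159 in libraries labelled null GFP+, 161 in the one labelled het GFP+ and 151 in the one labelled null GFP− (log2 difference from het GFP+ 0.02), close to the detection signal throughout.

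Il1r2, the decoy receptor that binds IL-1 without signalling, read 5103 and 3839 in libraries labelled null GFP+, 8875 in the one labelled het GFP+ and 3012 in the one labelled null GFP−. The het GFP+ library was the highest, and the difference of null GFP+ from het GFP+ was −1.02 (SE 0.32, adjusted p = 0.220). Il1rap, the accessory chain shared by receptors of the family, read 211 and 163 in libraries labelled null GFP+, 306 in the one labelled het GFP+ and 213 in the one labelled null GFP−, which gave −1.23 on the log2 scale (adjusted p = 0.234). Neither of these 2 differences passed.

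The signalling receptor Il1r1 read 247 and 161 in libraries labelled null GFP+, with both other libraries under detection at 147 in het GFP+ and 137 in the one labelled null GFP− (log2 difference from het GFP+ 0.91, SE 0.53, adjusted p = 0.501). Il1rl2, the receptor for IL-36, read 188 and 134 in libraries labelled null GFP+, 202 in the one labelled het GFP+ and 154 in the one labelled null GFP−. Il18bp, a secreted trap for IL-18, read 142 and 174 in libraries labelled null GFP+, against 139 in the one labelled het GFP+ and 172 in the one labelled null GFP−, so its libraries overlapped. In the RefSeq gene order Il1r2, Il1r1 and Il1rl2 are adjacent on chromosome 1, as are Il18r1 and Il18rap. Between Il1rl2 and Il18r1 lies 1 protein-coding gene that is not a member and was not examined. The nearest member neighbour of Il18r1, Il18rap, did not pass, but it lay close to the detection signal.

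**Figure D2:**
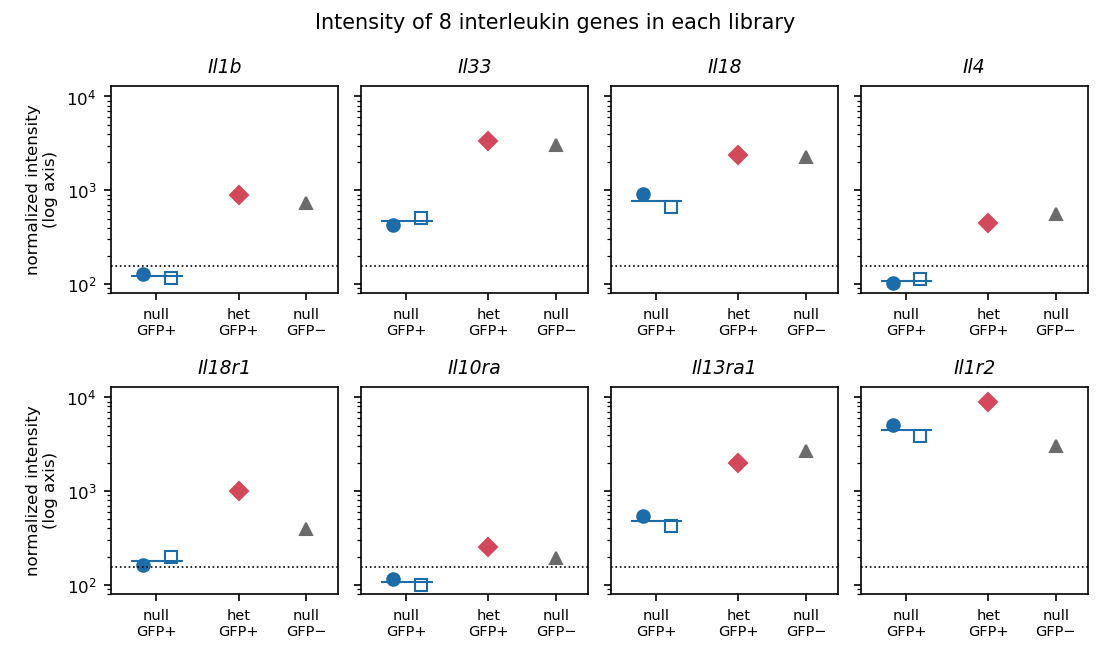
Normalized intensity (vertical log axis) of the 6 members that were lower in libraries labelled null GFP+ than in that labelled het GFP+, with Il18 and Il1r2, which did not pass, in each library. Bars mark the geometric mean of the null GFP+ pair, circles and squares its libraries 1 and 3, and the dotted line is the detection signal of 154, under which both null GFP+ points of Il1b, Il4 and Il10ra lie.

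The IL-4 and IL-13 axis was lower in 1 ligand and 1 receptor chain. Il4, the type 2 cytokine of mast cells, basophils and T helper cells, read 102 and 113 in libraries labelled null GFP+, 445 in the one labelled het GFP+ and 564 in the one labelled null GFP−. Its null GFP+ signals were under detection, and it was at least 2.88-fold lower in deposited intensity than in the one labelled het GFP+ (log2 difference −3.72, SE 0.28, adjusted p = 0.0102). Il13, which is adjacent to Il4 in the RefSeq order, read 142 and 140 in libraries labelled null GFP+, 145 in the one labelled het GFP+ and 167 in the one labelled null GFP−, and was above detection in the last of these alone. Il3, Il5, Il5ra and the IL-13 decoy Il13ra2 were not above detection in any library.

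Il13ra1, which pairs with the IL-4 receptor alpha chain to bind IL-13 and IL-4, read 541 and 425 in libraries labelled null GFP+, 2013 in the one labelled het GFP+ and 2659 in the one labelled null GFP−. It was lower in libraries labelled null GFP+ than in that labelled het GFP+ (log2 difference −2.31, SE 0.32, adjusted p = 0.0321). Its partner Il4ra read 123 and 173 in libraries labelled null GFP+, 118 in the one labelled het GFP+ and 124 in the one labelled null GFP−, above detection in 1 library only. The IL-3 receptor chain Il3ra read 887 and 911 in libraries labelled null GFP+, 814 in the one labelled het GFP+ and 863 in the one labelled null GFP− (log2 difference from het GFP+ 0.16, SE 0.27, adjusted p = 0.844).

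In the IL-10 family, only receptor chains were detected. Il10ra, the ligand-binding IL-10 chain of leukocytes, read 115 and 100 in libraries labelled null GFP+, 250 in the one labelled het GFP+ and 196 in the one labelled null GFP−. It was at least 1.62-fold lower in deposited intensity in libraries labelled null GFP+ than in that labelled het GFP+ (log2 difference −2.56, SE 0.29, adjusted p = 0.0201). Il10rb, the broadly expressed partner chain, read 224 and 232 in libraries labelled null GFP+, 333 in the one labelled het GFP+ and 362 in the one labelled null GFP− (−0.82, adjusted p = 0.246). Il20rb, a chain of the IL-20 receptor, read 471 and 389 in libraries labelled null GFP+, 327 in het GFP+ and 299.8 in null GFP− (0.51, adjusted p = 0.506). Another tested probe of Il20rb gave −0.03. The partner Il20ra stayed between 147 and 179. None of the 5 ligands of the family (Il10, Il19, Il20, Il22 and Il24), nor Il22ra1 or the soluble trap Il22ra2, was above detection in any library.

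The IL-6 family did not pass in any member. Il6st (gp130), the shared signalling chain of the family, read 2069 and 2265 in libraries labelled null GFP+, 2586 in the one labelled het GFP+ and 2468 in the one labelled null GFP− (log2 difference from het GFP+ −0.27, SE 0.28, adjusted p = 0.729). Il6ra, the IL-6 binding chain, read 222 and 215 in libraries labelled null GFP+, 374 in het GFP+ and 296 in null GFP− (−1.16, SE 0.27, adjusted p = 0.122). On this probe its libraries labelled null GFP+ lay below both others. Another tested probe read 187 and 156 in libraries labelled null GFP+, 215 in het GFP+ and 168 in null GFP−. There the null GFP− library lay between those labelled null GFP+. Il6 itself read 321 and 258 in libraries labelled null GFP+, 265 in the one labelled het GFP+ and 501 in the one labelled null GFP−, where the null GFP− library was the highest. Il11, a related cytokine of stromal cells, read 198 and 235 in libraries labelled null GFP+, 229 in the one labelled het GFP+ and 283 in the one labelled null GFP−.

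Il31ra, the IL-31 binding chain, which is adjacent to Il6st in the RefSeq order, read 208 and 382 in libraries labelled null GFP+, 317 in the one labelled het GFP+ and 289 in the one labelled null GFP−. It was 1 of 4 tested members, with Il1r1, Il1rl2 and Il4ra, whose libraries labelled null GFP+ differed from each other by over 2-fold after background correction. Its other libraries lay within that range, and without null GFP+ library 1 its difference was 0.36 from het GFP+ and 0.56 from null GFP−, in place of −0.30 and −0.10. Il31 was not above detection in any library.

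Among the common gamma chain cytokines, Il15, which supports natural killer and memory T cells, read 545 and 441 in libraries labelled null GFP+, 736 in the one labelled het GFP+ and 692 in the one labelled null GFP− (log2 difference from het GFP+ −0.70, SE 0.31, adjusted p = 0.379). Its presenting receptor chain Il15ra read 551 and 506 in libraries labelled null GFP+, 482 in het GFP+ and 364 in null GFP− (0.16, adjusted p = 0.846). Further tested probes of Il15ra gave 0.29, −0.36 and 0.19. Il2, Il7, Il9 and Il21 were not above detection in any library. Nor were the receptor chains Il2ra, Il2rb, Il7r, Il9r and Il21r.

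The member with the highest log2 difference from het GFP+ was Il27ra, a receptor chain for IL-27. It read 415 and 377 in libraries labelled null GFP+, 226 in the one labelled het GFP+ and 259 in the one labelled null GFP−, which gave 1.18 (SE 0.28, adjusted p = 0.123), and a further probe gave 0.94 (adjusted p = 0.204). Both libraries labelled null GFP+ lay above both others, and the difference did not pass. The ligands Il12a, Il23a and Il27 and the receptor chains Il12rb1, Il12rb2 and Il23r were not above detection in any library.

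In the IL-17 family, the ligand Il17d read 1451 and 952 in libraries labelled null GFP+, 702 in the one labelled het GFP+ and 844 in the one labelled null GFP− (0.83, SE 0.37, adjusted p = 0.387). Il17rc, which pairs with Il17ra for IL-17A and IL-17F, read 1538 and 1450 in libraries labelled null GFP+, 1182 in het GFP+ and 1222 in null GFP− (0.36, adjusted p = 0.612). Its other tested probes gave −0.02 and −0.05. Il17rd read 223 and 190 in libraries labelled null GFP+, 225 in the one labelled het GFP+ and 178 in the one labelled null GFP−, and Il17ra was above detection in 1 library, at 164 in null GFP+ library 1. The other 5 ligands (Il17a, Il17b, Il17c, Il17f and Il25) and the receptor chains Il17rb and Il17re were not above detection in any library.

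Some members bear the name of interleukin without belonging to these families. Il34, a ligand of the macrophage receptor CSF1R, read 237 and 265 in libraries labelled null GFP+, 350 in the one labelled het GFP+ and 351 in the one labelled null GFP− (−0.70, SE 0.29, adjusted p = 0.340). Il16, a chemoattractant for CD4+ cells, read 209 and 237 in libraries labelled null GFP+, 207 in the one labelled het GFP+ and 185 in the one labelled null GFP−. The enzyme Il4i1 read 129 in both libraries labelled null GFP+, 154 in the one labelled het GFP+ and 186 in the one labelled null GFP−. None of these passed in any comparison.

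Detection set the limits of the list. Of the 77 members, 34 were above the detection signal in at least 1 library, 22 of them in all 4 (8 ligands and 14 receptors), and 43 in none. Ligands were tested for 11 of 38 and receptors for 21 of 36. The members above detection were 26 in each null GFP+ library, 28 in the one labelled het GFP+ and 29 in the one labelled null GFP−, or 33.8%, 36.4% and 37.7% of the list, where 46.4% to 47.1% of all genes were above it. The highest signal of any member that was not tested was 153, just under the threshold of 154. A member under the detection signal may still be transcribed.

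Across the 34 members tested, the median log2 difference between null GFP+ and het GFP+ cells was −0.28, with 21 below 0 and 13 above, where the median over all genes tested was 0.05. The het GFP+ library lay above both libraries labelled null GFP+ for 19 members (55.9%), against 34% of all genes tested. Il1b, Il4, Il10ra and Il20ra are among these 19 and among the 21 below 0. Bright enough for the filter only outside the libraries labelled null GFP+, they could only lie lower. Il1r1, above detection in the libraries labelled null GFP+ alone, could only lie higher. These summaries were not repeated for the 22 members above detection in all 4 libraries. At the thresholds of the study's methods, a change of over 2-fold at an unadjusted p under 0.05, here with the p of limma, 10 members were lower (29.4%, where 6.32% of all genes were) and 1, Il27ra, was higher (2.94%, where 5.18% were). The 10 added Il18, Il1rap, Il6ra and Il1r2 to the 6 above, and so include Il1b, Il4 and Il10ra, which could only lie lower. With the methods' t-test, which has 1 degree of freedom here, 3 members were lower and 0 higher at these thresholds. The share of all genes under that t-test was not counted.

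**Figure D3:**
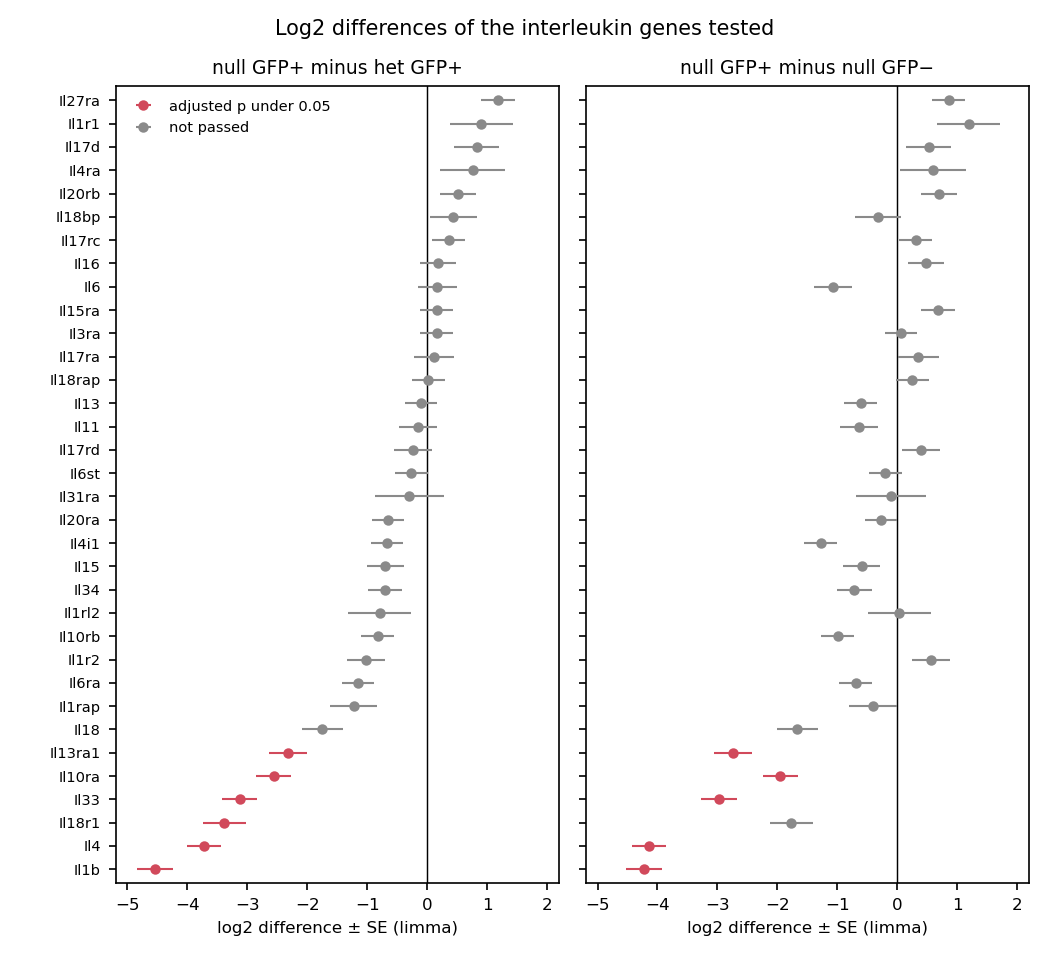
Log2 difference with its standard error (horizontal axis, limma) for the 34 members tested, for null GFP+ minus het GFP+ cells on the left and null GFP+ minus null GFP− cells on the right, with members in the same order and those at an adjusted p under 0.05 in red. The 6 red members on the left lie between −4.54 and −2.31, and Il18r1 is the one that is not red on the right.

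The null GFP+ cells were next compared with the GFP− cells of the same genotype. This comparison shares the libraries labelled null GFP+ with the one above, so the results of the pair are not independent. Here 5 members were lower (14.7%, against 2.64% of all genes) and 0 were higher (against 1.3%), and the median over members was −0.29, against 0.02 over all genes. Of the 5, Il1b, Il4 and Il10ra were under detection in both libraries labelled null GFP+. They passed the filter only through libraries where they were bright, so they could only lie lower in those labelled null GFP+. In deposited intensity Il1b was at least 4.79-fold lower (corrected log2 difference −4.23, adjusted p = 0.0118) and Il4 at least 3.65-fold lower (−4.14, adjusted p = 0.0118). Il33 was lower (−2.97, adjusted p = 0.0177), Il13ra1 was lower (−2.73, adjusted p = 0.0228) and Il10ra was at least 1.27-fold lower (−1.95, adjusted p = 0.0402). The Il10ra call was lost with no background correction (adjusted p = 0.0734), at an offset of 1 (0.0622) and at an offset of 50 (0.0584), and that of Il13ra1 at an offset of 1 (0.0521). Il18r1 had a difference of −1.77 (SE 0.36, adjusted p = 0.0820) and Il18 of −1.66 (adjusted p = 0.0838), neither of which passed here. With no background correction both passed, at adjusted p = 0.0367 for Il18r1 and 0.0173 for Il18. Of the members above detection in all 4 libraries, 2 were lower (9.09%, against 1.19% of all such genes). Unadjusted, 11 members had a p under 0.05, with Il27ra again the only one higher, but the share of all genes there was not counted. Without the filter on dim probes 0 members passed.

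The remaining comparison set the het GFP+ library against the null GFP− library, 1 library each, which differ in both genotype and gate. No member passed in limma in either direction, where 0% of all genes passed as higher and 0% as lower. At an unadjusted p under 0.05, for which the share of all genes was not counted, there were 3 members. These were Il18r1 (1.61, adjusted p = 1.00), Il1r2 (1.59, SE 0.36, adjusted p = 0.972), both brighter in the one labelled het GFP+, and Il6 (−1.24), which was brighter in the one labelled null GFP−. Il18r1 read 1010 in the one labelled het GFP+, against 392 in the one labelled null GFP−. The other members lower in libraries labelled null GFP+ had het GFP+ minus null GFP− differences of 0.31 for Il1b, 0.15 for Il33, −0.42 for Il4, 0.62 for Il10ra and −0.42 for Il13ra1.

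Summed markers of mast cells and neutrophils moved with these members. The summed intensity of 9 mast cell genes was 2038 and 2140 in libraries labelled null GFP+, 73294 in the one labelled het GFP+ and 74208 in the one labelled null GFP−, and all 8 that were tested were lower in libraries labelled null GFP+ than in that labelled het GFP+. In the libraries labelled null GFP+ 5 and 3 of these 9 genes were above detection, against 8 in each other library. Hdc (318 and 602) and Gata2 (689 and 611) were above it in both libraries labelled null GFP+, and Kit (138 and 162) in library 3. The proteases Cpa3, Cma1 and Mcpt4 were above it in library 1 only, at 169, 162 and 184. The protease Tpsb2 was under it in both, at 134 and 111. The sum of 8 neutrophil genes was 1070 and 1162 in libraries labelled null GFP+, 28559 in het GFP+ and 27832 in null GFP−. All 8 were lower in libraries labelled null GFP+ than in that labelled het GFP+. Against null GFP−, 6 of the 8 were lower, and Elane and Mpo did not pass. Elane read 128 and 120 in libraries labelled null GFP+, 241 in het GFP+ and 115 in null GFP−. Mpo read 172 and 197 in libraries labelled null GFP+, 1082 in het GFP+ and 292 in null GFP−. In the libraries labelled null GFP+ 1 and 3 of the 8 were above detection, against 8 in het GFP+ and 7 in null GFP−. Mpo was above it in both libraries labelled null GFP+, and S100a8 (193) and Camp (198) in library 3. S100a9 was under detection in both libraries labelled null GFP+, at 116 and 125.

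Of 11 macrophage and dendritic cell genes tested, 7 were lower in libraries labelled null GFP+ than in that labelled het GFP+, and the sum of the 12 on the array was 15383 and 5609 in libraries labelled null GFP+, 44800 in the one labelled het GFP+ and 33407 in the one labelled null GFP−. The libraries labelled null GFP+ differed from each other in that sum, mainly through Lyz1 at 10482 and 3095. Of 9 T, NK and innate lymphoid genes, 1 was above detection in each library, Thy1, which stromal cells also express. The pan-leukocyte gene Ptprc was under detection in every library. Coro1a and Laptm5, also pan-leukocyte, were lower in libraries labelled null GFP+ than in that labelled het GFP+. The B cell gene Cd79b read 187 and 306 in libraries labelled null GFP+, 213 in het GFP+ and 152 in null GFP−, and passed in no comparison. The B cell gene Ms4a1 was under detection in every library. The sum of the 7 stromal progenitor genes was 135937 and 146437 in libraries labelled null GFP+, 171301 in the one labelled het GFP+ and 169264 in the one labelled null GFP−, and 1 of the 7, Pi16, was lower in libraries labelled null GFP+ than in that labelled het GFP+ (7689 and 7894, against 30298, adjusted p = 0.0321). Mesothelial genes summed to 487 and 503 in libraries labelled null GFP+, 751 in the one labelled het GFP+ and 763 in the one labelled null GFP−. Among them Msln and Lrrn4 were under detection in every library. Upk3b was lower in libraries labelled null GFP+ than in het GFP+ (117 and 141, against 375). Krt19 was not (186 and 158, against 157). The part of any of these cell types in the lower Il1b, Il4, Il33, Il18r1, Il10ra and Il13ra1 was not tested.

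Other markers were higher in libraries labelled null GFP+. Adipocyte genes summed to 6800 and 14554 in libraries labelled null GFP+, 918 in the one labelled het GFP+ and 854 in the one labelled null GFP−. Of 6 tested, 4 were higher in libraries labelled null GFP+ than in that labelled het GFP+. In het GFP+ and in null GFP−, Car3 was the only adipocyte gene above detection. Fabp4 was under detection in every library. Endothelial genes summed to 12799 and 11157 in libraries labelled null GFP+, 7699 in the one labelled het GFP+ and 5530 in the one labelled null GFP−, with 6 of 8 tested higher. Tek ran the other way, at 3061 and 2097 in libraries labelled null GFP+, 5293 in het GFP+ and 3815 in null GFP−. Its log2 difference from het GFP+ of −1.09 did not pass (adjusted p = 0.231 from limma). Kdr was under detection in every library.

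**Figure D4:**
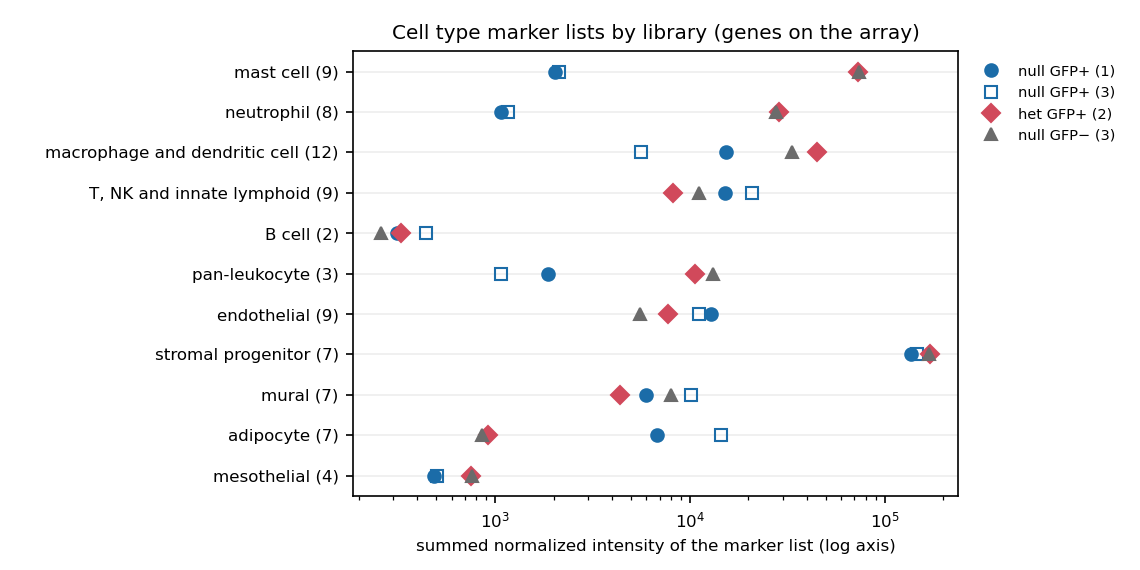
Summed normalized intensity (horizontal log axis) of each cell type marker list, with the number of its genes on the array in parentheses and 1 symbol per library. The mast cell and neutrophil rows show the libraries labelled null GFP+ between 1070 and 2140 and both others between 27832 and 74208, while the stromal progenitor row lies between 135937 and 171301 in all libraries.

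The genes that carry interleukin signals beyond the members were examined from lists of known pathway genes. Of 9 tested genes for shared receptor chains and related ligands, 2 were lower in libraries labelled null GFP+ than in that labelled het GFP+. Osm, a macrophage and neutrophil cytokine that signals through gp130, read 143 and 130 in libraries labelled null GFP+, 409 in the one labelled het GFP+ and 528 in the one labelled null GFP−, at least 2.65-fold lower in deposited intensity than in the one labelled het GFP+ (adjusted p = 0.0178). Csf1r, the receptor for IL-34, read 170 and 163 in libraries labelled null GFP+, 633 in the one labelled het GFP+ and 379 in the one labelled null GFP− (−2.87, adjusted p = 0.0134).

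Of 14 tested JAK, STAT and SOCS pathway genes, 1 was lower, Ptpn6, a phosphatase of blood cells that dampens JAK signals, at 203 and 178 in libraries labelled null GFP+, 673 in the one labelled het GFP+ and 1152 in the one labelled null GFP− (−2.58, adjusted p = 0.0223). Of 20 tested genes of the MyD88, IRAK, TRAF and NF-kappaB route, 0 passed in either direction, with a median log2 difference of 0.04. No gene of these lists was higher in libraries labelled null GFP+ than in that labelled het GFP+ at an adjusted p under 0.05.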

How the data were processed

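RNA of sorted cells was hybridized to 4 arrays. The authors deposited linear probe intensities whose sorted values differ between arrays by at most 0.380%, so the arrays already shared 1 distribution, and how they were normalized is not stated in these sources. The deposited detection p-values stand in a table whose 4 signal columns match no label. Those columns were not used, and no step ties a column of p-values to a library. Background was corrected by normexp with detection p-values, fitted to the shared distribution by rank (mean 108, SD 13.6), an offset of 16 was added and log2 was taken. Log2 differences are on this corrected scale and intensities are as deposited.

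Of 45281 probes, 34885 had 1 gene symbol, 18 had several and 10378 had none, and none was named from a probe with several. The 17379 probes that any array detected at a p under 0.01 were tested. Groups, set by the labels, were compared with limma 3.58.1 in R 4.3.3 (lmFit and eBayes, 3 groups, 1 residual degree of freedom and 4.03 prior degrees of freedom, two-sided, Benjamini-Hochberg). The fit was tested on simulated data. Where every array of a group was under the detection signal of 154, the fold is a lower bound against that signal in deposited intensities, before background correction. Precision is limited by having only 4 arrays.

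Values in every library are given for members that passed in any comparison, were above detection in all 4 libraries, or differed from het GFP+ by over 1 on the log2 scale the same way in both null GFP+ libraries, with shorter values for the rest above detection in at least 1 library. The members, marker lists and signalling lists were chosen with earlier results of these data known. Promoter windows were from RefSeq tables of GRCm38.p6. The alternatives covered the background correction, offset, filter, variance model, choice of probe, test and each null GFP+ library left out.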

Additional observations from a re-analysis of the deposited data

How the results depend on the processing

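The share of all genes called in the alternative settings is not given here, so the counts of members describe the list only. Without the filter on dim probes, 2 members were lower in null GFP+ than in het GFP+ cells, in place of 6. Against null GFP− cells 0 were lower, in place of 5. All 77 members and the undetected probes entered that fit. In that fit Il1b and Il4 alone passed against het GFP+, and the adjusted p was 0.0586 for Il33, 0.0712 for Il10ra, 0.0856 for Il18r1 and 0.113 for Il13ra1. An offset of 1 gave 3 lower against null GFP−. The count against het GFP+ was 5 to 7 in all other settings, and Il18 passed against both het GFP+ and null GFP− with no background correction, with normexp without detection p-values and offset 50, with an offset of 50 and with a variance trend. Against null GFP−, Il18r1 passed in these settings other than the offset of 50, and Il10ra was lost with no background correction (adjusted p = 0.0734), at offset 1 (0.0622) and at offset 50 (0.0584). Il13ra1 was lost at offset 1 against both. No member that passed changed direction. Among named members that did not pass, the sign changed without null GFP+ library 1 for Il11 (0.064 from het GFP+), Il6 (−0.060 from het GFP+) and Il31ra (0.36 from het GFP+ and 0.56 from null GFP−).

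The median over members against het GFP+ was −0.078 with no filter and −0.48 with detection required on at least 2 arrays, and −0.35 to −0.32 without each null GFP+ library. Against null GFP− it was −0.16 with no background correction, −0.18 with normexp and offset 50, −0.39 at offset 1, −0.20 at offset 50, −0.042 with no filter, −0.10 with any tested probe allowed, and −0.34 without each null GFP+ library. For het GFP+ against null GFP− it was 0.23 with any tested probe. The rule of the methods gave 0 members higher with no background correction and with normexp and offset 50. The methods' t-test gave 0 higher and 3 lower, and 0 and 0 after Benjamini-Hochberg adjustment. No count of calls could be had without a null GFP+ library, since no residual degree of freedom is left. No paired analysis was possible because the groups share fewer than 2 replicate numbers. Signals near the detection signal of 154 limit what can be said of the 43 members that never exceeded it.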
